A study of Mus musculus with 6 samples.

Results

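The amino acid transporters of corneal keratocytes were taken as every gene whose symbol belongs to the Slc1, Slc3, Slc6, Slc7, Slc36, Slc38 or Slc43 families of solute carriers. The rule found 52 of the 17606 genes in the table, of which 51 encode carriers and 1, Slc7a6os, is a gene named for its place opposite Slc7a6. The set was drawn up around the rise of Slc1a1 in these same libraries, so the values of Slc1a1 are given as a description with no test. Fold changes are given for genes with at least 10 counts in at least 3 libraries, a floor that 38 of the 52 members passed and 14 did not. The last member inside the floor apart from Slc1a1 was Slc6a4, with 0, 6 and 11 counts in the control and 65, 1 and 109 in the ablated libraries, and the first outside it was Slc3a1, with 14, 0 and 26 against 7, 0 and 2. Slc1a1 passed through the 3 ablated libraries alone.

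Keratocytes, the mesenchymal cells of the corneal stroma, were sorted by flow cytometry from the corneas of 10-week-old mice and profiled by bulk RNA-seq. Prrx1-CreERT;Ptch1 f/f mice carried a tamoxifen-inducible Cre driven by Prrx1 and floxed alleles of Ptch1, the receptor that keeps Hedgehog signaling off. Both these mice and the control mice received 3 doses of tamoxifen and were sampled 1 month later, 3 libraries per group. The control samples are titled WT and their Cre status is not given, so an effect of Cre itself and one of Ptch1 loss cannot be told apart. Cre acts in every Prrx1-expressing cell, not in keratocytes alone. The comparison asks how transporter transcripts differ between keratocytes with sustained Hedgehog signaling and control keratocytes.

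Library totals ran from 20258424 to 24788062 counts, and the members held between 0.241% and 0.319% of them. Transcripts assigned to Ptch1 were higher in the ablated libraries (4348, 5194 and 6230 counts) than in the controls (172, 104 and 369), so the gene total, which does not resolve the floxed exons, does not check the deletion and the libraries are grouped by their labels. The first principal component (45.1% of the variance) separated the groups, and on the second (22.2%) control replicate 1 and ablated replicate 2 stood away from the remaining 4. The keratocyte markers summed to between 84790 and 94900 counts per 1000000 (CPM) in controls and to between 52780 and 70520 in ablated libraries. At the adjusted p used here 5 of 7 were lower, against 3.80% of all genes tested. The others were Dcn, the most abundant (log2 fold change, ablated over control, -0.32, edgeR adjusted p = 0.177), and Lum (-0.07, edgeR adjusted p = 0.812).

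Amino acids do not cross membranes unaided. Each family moves a class of them with its own driving force: Slc1 carriers use the sodium gradient to take up glutamate and aspartate or to exchange small neutral amino acids, Slc38 carriers of the system A type accumulate glutamine and alanine, and the Slc7 light chains pair with an Slc3 heavy chain to exchange large neutral, cationic or sulfur-containing amino acids. In connective tissue these carriers supply glycine, proline and glutamine for collagen, cysteine for glutathione, and osmolytes such as taurine, and several of them are known targets of ATF4, the transcription factor of the amino acid response.

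The promoters of Slc1a1, near 0 in controls, and of Slc38a4, the carrier with the next largest rise, are shown as the regions upstream of the strongest changes, and that of Slc7a11, a cystine carrier, as a member promoter with 2 matches to the ATF4 motif (a window of Slc7a7 also held 2). The sequences are the bases before the transcription start in RefSeq (GRCm38.p6), read along the gene's strand. Slc1a1 is at chr19:28834885-28835134 on the + strand, Slc38a4 at chr15:97055957-97056206 on the - strand before the farthest upstream of its 3 starts, and Slc7a11 at chr3:50443614-50443713 on the - strand. Capitals mark matches to TGATGNAA, the core of the amino acid response element, on either strand.
Slc1a1: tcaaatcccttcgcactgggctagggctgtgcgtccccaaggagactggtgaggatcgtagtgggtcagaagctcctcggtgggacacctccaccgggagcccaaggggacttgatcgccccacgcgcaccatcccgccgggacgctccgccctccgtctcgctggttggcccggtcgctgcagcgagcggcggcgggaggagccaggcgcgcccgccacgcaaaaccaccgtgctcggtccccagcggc
Slc38a4: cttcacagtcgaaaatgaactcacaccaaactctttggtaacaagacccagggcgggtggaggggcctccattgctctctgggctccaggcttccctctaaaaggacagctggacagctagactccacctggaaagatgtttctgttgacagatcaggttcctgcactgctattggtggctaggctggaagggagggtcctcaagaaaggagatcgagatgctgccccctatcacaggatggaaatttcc
Slc7a11: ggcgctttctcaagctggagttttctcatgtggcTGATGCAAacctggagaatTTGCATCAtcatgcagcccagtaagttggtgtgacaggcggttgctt

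The Slc1a1 stretch had a GC content of 70.4% and the Slc38a4 stretch of 52.8%, and neither held a match. Windows of 300 bases, from 250 before to 50 after each start, were read for 37 of the 52 members (51 windows). The Gli site core ACCACCC was in 0 of the 51 windows on either strand and in 4.61% of the 32851 windows of all genes, and the longer GACCACCCA, which contains it, was in 0 against 0.253%. TGATGNAA was in 4 windows of 3 members, Slc1a4, Slc7a7 and Slc7a11, and in 3.97% of all windows. The windows of Slc1a5, Slc6a6, Slc38a1 and Slc43a3 were not used here. A match says only that the letters are present, and its absence only that they are not in this window.

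Carriers for several classes of amino acid were present in control keratocytes, and their order of level differed between the groups. At a mean of at least 1 TPM (transcripts per 1000000, a scale that corrects for gene length), 29 of the 51 carriers were present in controls and 33 in ablated libraries, 18 and 20 at a mean TPM of at least 10, and 6 and 4 at a mean TPM of at least 100. In TPM the median log2 fold change (ablated over control) of all genes tested was 0.19 to 0.22. Comparisons of TPM between groups include that shift. In controls the highest levels were those of Slc38a10 (259 ± 33.6 TPM, SD, n = 3 here and for all values given with ±) and the heavy chain Slc3a2 (252 ± 35.0), whose ranges overlapped, followed by the glutamine exchanger Slc1a5 (176 ± 28.9) and the taurine carrier Slc6a6 (170 ± 3.68), which also overlapped. The system A carrier Slc38a2 (115 ± 12.2 TPM) and the light chain Slc7a8 (110 ± 13.1 TPM) came next and did not differ beyond their spread. In ablated libraries Slc6a6 was highest (375 ± 75.0 TPM) with a range above that of Slc3a2 (282 ± 9.55 TPM). Slc38a10 (242 ± 24.0 TPM) and Slc38a2 (241 ± 38.4 TPM) followed with overlapping ranges, all above Slc1a5 (73.5 ± 14.9 TPM). Slc1a1, at rank 15 of the ablated libraries, overlapped its neighbours Slc1a3 and Slc43a3.

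**Figure D1:**
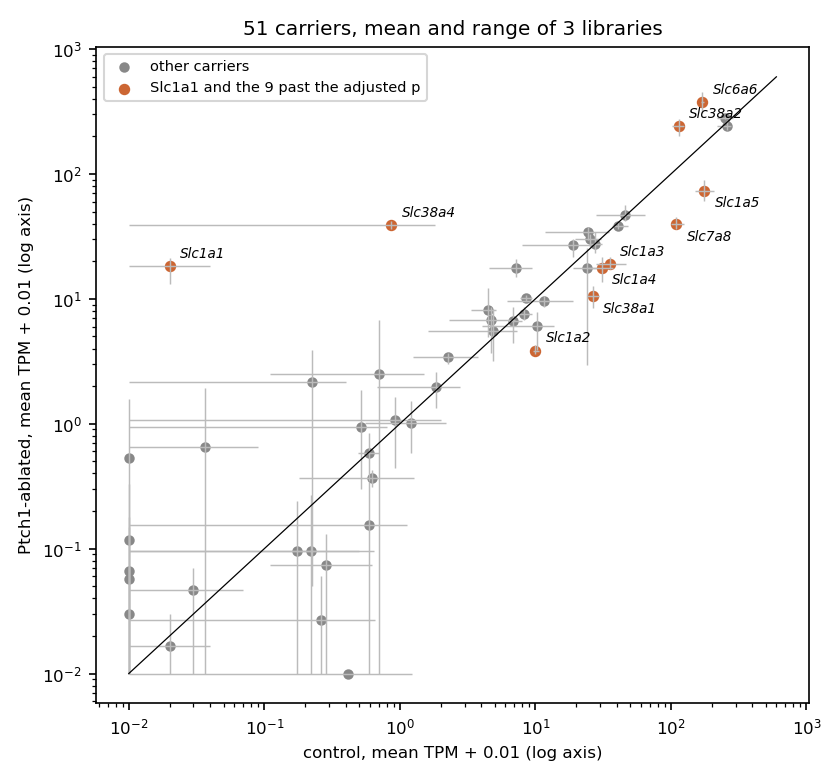
Mean TPM + 0.01 of each of the 51 carriers in control (horizontal log axis) and Ptch1-ablated libraries (vertical log axis), with grey bars for the range of the 3 libraries and a line of equal level. Slc1a1 (0.01 against 18.3 TPM) and Slc38a4 (0.857 against 39.0 TPM) lie far above the line, while Slc1a5, Slc7a8, Slc38a1 and Slc1a2 lie below it.

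Of the 35 carriers tested apart from Slc1a1, 9 differed between groups with an edgeR adjusted p not above 0.05, 3 higher and 6 lower in the ablated libraries. That is 25.7% of them, against 8.48% of the 13888 genes tested (4.68% higher and 3.80% lower). The thresholds of the study's methods add a fold change of at least 2. At these, 7 were called, 1 higher and 6 lower, or 20% against 5.49% of all genes (3.36% higher and 2.13% lower). This balance moved with the scaling: with library totals only, and with limma on either TPM scale, 4 were called higher (Slc38a4, Slc38a2, Slc6a6 and Slc43a3) and 4 lower (Slc1a2, Slc1a5, Slc7a8 and Slc38a1), while the higher share of all called genes went from 61.2% to between 73.0% and 73.4%. The 9 past the adjusted p and the 7 called include Slc38a4, the 1 called higher, which entered the fit through its ablated libraries. Its part in both shares is thus a description. Without Slc38a4 the called carriers are the 6 lower, and those higher past the adjusted p are Slc38a2 and Slc6a6. The groups did not overlap in CPM for 11 of the 35 (31.4%), against 27.4% of all genes, a share near the background. Their median log2 fold change (ablated over control) was -0.16 against 0.00 over all genes, and the median of its size was 0.47 against 0.36, at the same median standard error of 0.30. The remaining 26 carriers had log2 fold changes from -0.96 to 1.55, 11 above and 15 below 0, with a lowest adjusted p of 0.0828. Without control replicate 1 and ablated replicate 2, the libraries that stood away, 8 carriers passed the adjusted p (Slc1a4 missed it at 0.117) and 6 were called. In bulk RNA, fewer cells of a type and less RNA per cell cannot be told apart in any of these differences.

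**Figure D2:**
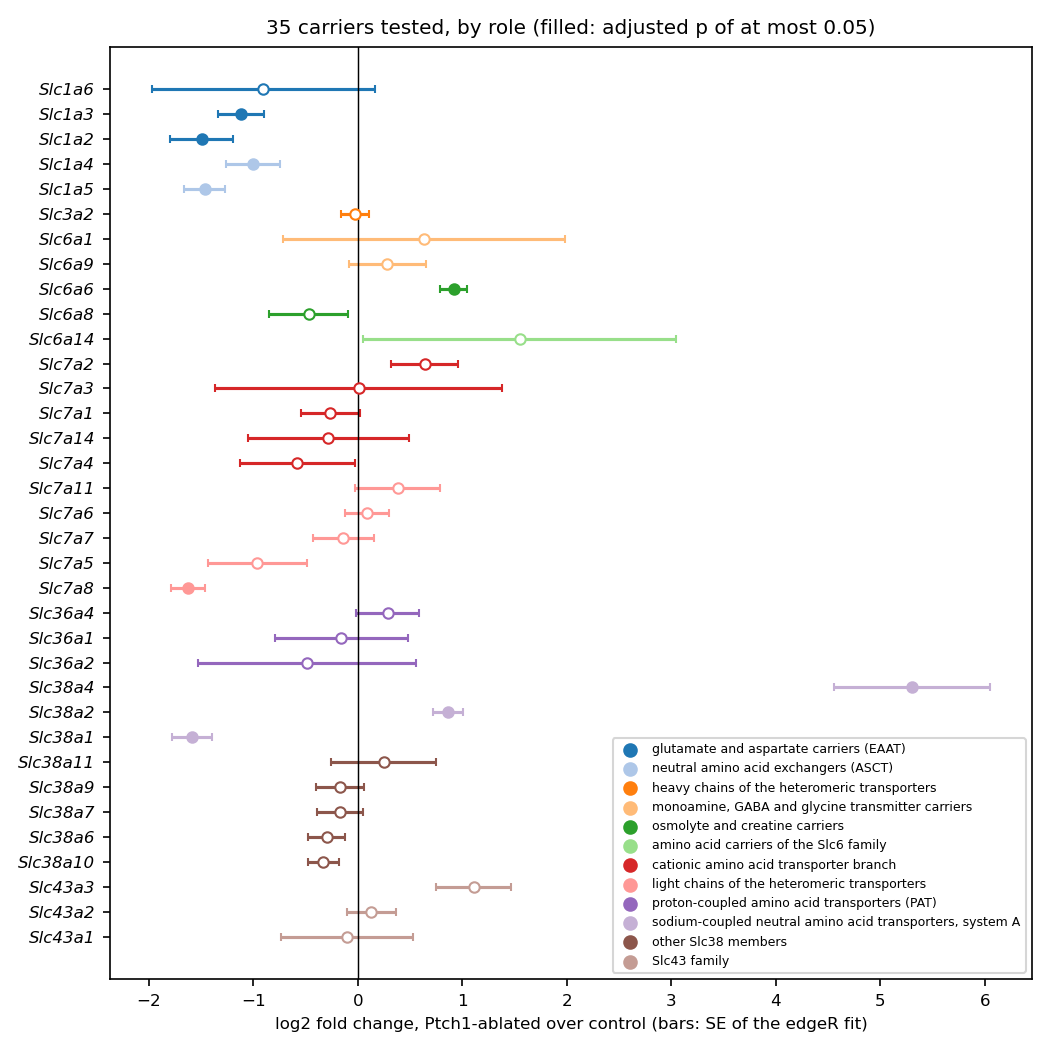
Log2 fold change of Ptch1-ablated over control for the 35 carriers tested, Slc1a1 left out, with bars for the SE of the edgeR fit, colored by role and filled where the adjusted p was at most 0.05. Filled points are 6 on the lower side, from -1.63 for Slc7a8 to -1.0 for Slc1a4, and 3 on the higher side, Slc38a2, Slc6a6 and Slc38a4.

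Among the carriers for glutamate and aspartate, Slc1a1 was near 0 in controls and Slc1a2 and Slc1a3 fell. Slc1a1 encodes EAAC1, the high-affinity carrier that also takes up cysteine. It had 0, 1 and 0 counts in the control libraries and 764, 444 and 811 in the ablated libraries, or 28.0 ± 7.93 CPM. Each control library was thus at or near 0 and each ablated library well above. Against 3 counts per library, the limit that a count of 0 allows and on average 0.142 CPM, the level was at least 197-fold higher in the ablated libraries, counting error only. By the reference annotation 31.9% of the exon bases of Slc1a1 are shared with 4430402I18Rik on the opposite strand, and whether counting used strand is not given in the sources used here. 4430402I18Rik had 48, 60 and 41 counts in controls and 62, 41 and 1 in ablated libraries, and its part in the Slc1a1 counts was not tested.

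Slc1a2, which encodes the glial glutamate carrier GLT-1, had 808, 606 and 758 counts in control libraries against 341, 171 and 361 in ablated ones. Every ablated library was below every control. The level fell from 34.0 ± 2.70 to 12.1 ± 4.19 CPM, a log2 fold change of -1.49 ± 0.30 (SE here and for all log2 fold changes; edgeR adjusted p = 0.00834). Slc1a3, which encodes the related carrier GLAST, had 1241, 1212 and 2091 counts in controls and 709, 830 and 806 in ablated libraries. It also fell with no overlap, from 70.7 ± 18.3 to 32.6 ± 2.52 CPM (log2 fold change -1.12 ± 0.22, edgeR adjusted p = 0.00696), and was not called in 4 of 17 other settings. It was under 2-fold with library totals only (-0.94), limma on log2(TPM + 1) (-0.84) and without control replicate 3 (-0.89), and limma on log2(TPM + 0.1) also missed the adjusted p (-0.87, adjusted p = 0.0505). Slc1a6 did not pass the test, and Slc1a7 was below the count floor, with 48 of its 50 counts in ablated replicate 3.

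Summed over the 5 genes, the level of these carriers was 46.1 ± 10.9 TPM in controls and 42.2 ± 3.11 TPM in ablated libraries, with overlapping ranges. As above, TPM sums compared between groups include the shift of that scale. Since the set was drawn up around Slc1a1, these sums and shares restate its rise and are given as a description. Slc1a1 held 0%, 0.0724% and 0% in control libraries against 49.2%, 33.9% and 46.1% in ablated ones. Slc1a3 held 76.5 ± 3.19% in controls and 45.5 ± 8.98% in ablated libraries, and Slc1a2 held 22.2 ± 3.74% and 9.15 ± 0.857%. Without Slc1a1 the sum was 46.1 ± 10.9 TPM in controls and 23.9 ± 1.84 TPM in ablated libraries, and the share of Slc1a3 in it was 76.5 ± 3.19% and 79.6 ± 4.79%, with overlapping ranges.

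**Figure D3:**
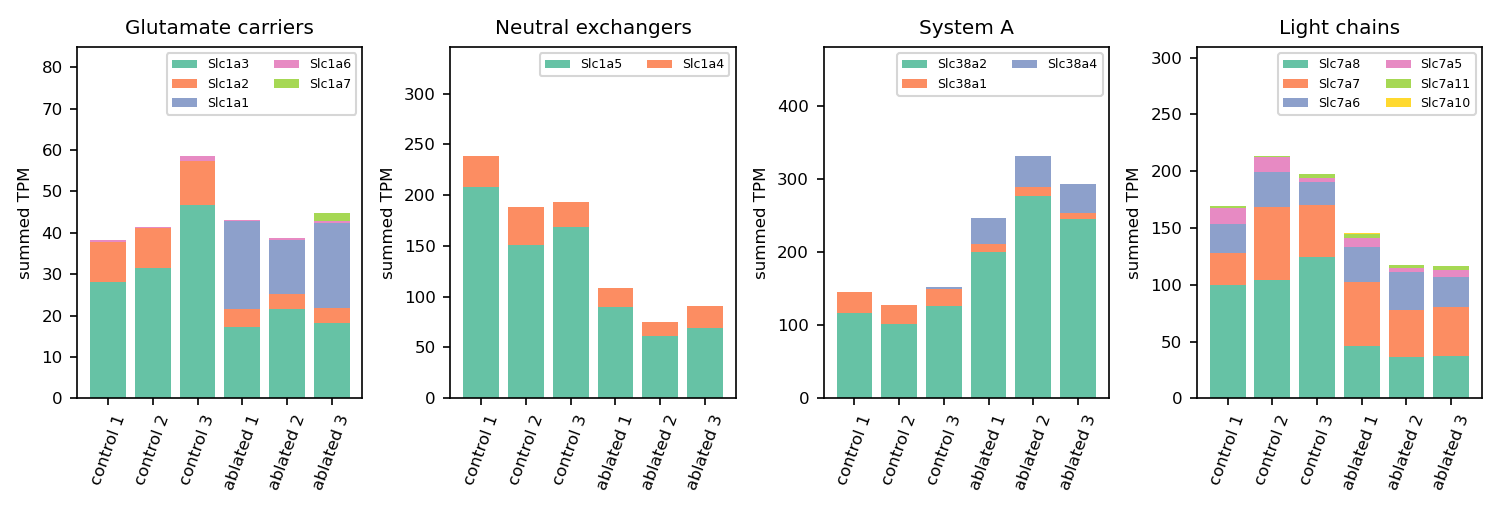
Summed TPM in each of the 6 libraries for the glutamate carriers, the neutral exchangers, the system A carriers and the light chains, with each gene's part stacked from 0. The glutamate carrier bars are of like height in both groups (46.1 and 42.2 TPM on average) with Slc1a1 visible in the ablated bars alone, the exchanger bars average 207 TPM in controls and 91.3 TPM in ablated libraries, and the system A bars 142 and 291 TPM.

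Both neutral amino acid exchangers of the Slc1 family fell. Slc1a5, which encodes ASCT2 and brings in glutamine in exchange for other neutral amino acids, had 5802, 3668 and 4750 counts in controls and 2341, 1489 and 1959 in ablated libraries. The highest ablated library stayed below the lowest control. Its level fell from 222 ± 38.7 to 80.6 ± 18.3 CPM (log2 fold change -1.46 ± 0.20, edgeR adjusted p = 0.000499). Slc1a4, which encodes ASCT1, a carrier of serine, alanine and cysteine, had 1269, 1329 and 1012 counts in controls and 691, 488 and 891 in ablated libraries, and fell from 57.4 ± 12.8 to 28.7 ± 7.59 CPM (log2 fold change -1.0 ± 0.25, edgeR adjusted p = 0.0299). The groups did not overlap, but Slc1a4 was not called in 13 of 17 other settings, 4 of them by a fold just under 2, and missed the adjusted p in 9, including those without control replicate 1 (adjusted p = 0.0608), control replicate 2 (0.141), ablated replicate 1 (0.0900) or ablated replicate 2 (0.108), while its log2 fold change stayed between -1.20 and -0.77.

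Of the heteromeric transporters, 1 light chain fell and the heavy chain did not pass the test. Slc3a2 encodes CD98, the heavy chain that carries the light chains to the cell surface. It had 4966, 3853 and 5814 counts in controls and 5178, 5248 and 5706 in ablated libraries. The groups overlapped, and the log2 fold change was -0.02 ± 0.14 (edgeR adjusted p = 0.954) with a sign that turned to 0.14 with library totals only and to 0.17 on the TPM scale. Slc7a8, which encodes LAT2, a light chain for neutral amino acids, had 4020, 3466 and 4937 counts in controls and 1657, 1278 and 1589 in ablated libraries. No ablated library came near the lowest control, and the level fell from 194 ± 18.9 to 62.9 ± 8.21 CPM (log2 fold change -1.63 ± 0.16, edgeR adjusted p = 4.91e-05). This was the lowest adjusted p of the 35 carriers, and the call held in all 17 other settings.

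Slc7a5, Slc7a6, Slc7a7 and Slc7a11 did not pass the test. Slc7a5 encodes LAT1, the light chain for large neutral amino acids, and had 496, 414 and 147 counts in controls and 265, 122 and 241 in ablated libraries. Control replicate 3 was as low as the ablated libraries, and the log2 fold change was -0.96 ± 0.48 (edgeR adjusted p = 0.288). Slc7a11, the cystine and glutamate exchanger xCT whose promoter is shown above, had 183, 107 and 376 counts against 342, 261 and 351, a log2 fold change of 0.38 ± 0.41 (edgeR adjusted p = 0.674). With Slc7a8 lower, the light chains summed to 194 ± 22.5 TPM in controls and to 127 ± 16.2 TPM in ablated libraries. Slc7a8 gave 59.2%, 49.0% and 63.0% of that sum in control libraries against 31.5%, 30.9% and 32.2% in ablated ones. Per unit of Slc3a2 TPM, the light chain TPM was 0.690, 0.969 and 0.684 in controls and 0.522, 0.402 and 0.425 in ablated libraries, again without overlap.

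The system A carriers moved in both directions. Slc38a4, which encodes SNAT4, had 0, 27 and 75 counts in control libraries against 1386, 1491 and 1614 in ablated ones. The controls were uneven, 1 of them at 0, and all of them lay far below the ablated libraries. With 2 controls at 10 counts or more, the gene entered the fit through its ablated libraries, so its p and calls are given as a description. Its level rose from 1.57 ± 1.65 to 62.4 ± 3.04 CPM (log2 fold change 5.30 ± 0.75, edgeR adjusted p = 0.000723, called in all 17 other settings with values from 4.55 to 6.51). Slc38a2, which encodes the amino acid-regulated carrier SNAT2, had 5465, 4169 and 5947 counts in controls and 8764, 11385 and 11681 in ablated libraries, and rose from 243 ± 21.5 to 442 ± 60.0 CPM (log2 fold change 0.86 ± 0.14, edgeR adjusted p = 0.00233). That is under 2-fold, but above it with library totals only and with limma on either TPM scale, and no library of one group reached the other. Slc38a1, which encodes the glutamine carrier SNAT1, had 2356, 1796 and 1953 counts in controls and 751, 865 and 681 in ablated libraries, and fell from 96.0 ± 11.4 to 32.0 ± 4.66 CPM (log2 fold change -1.58 ± 0.19, edgeR adjusted p = 0.0002).

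In TPM the 3 carriers summed to 142 ± 12.2 in controls and 291 ± 42.2 in ablated libraries. Slc38a2 held 80.6 ± 1.98% of the sum in controls and 82.9 ± 1.48% in ablated libraries. Slc38a1 went from 18.8 ± 2.48% to 3.61 ± 0.651% and Slc38a4 from 0.595 ± 0.596% to 13.5 ± 1.09%, so the place of the second carrier passed from Slc38a1 to Slc38a4 in every ablated library. The system N carriers Slc38a3 and Slc38a5 were below the count floor, with at most 13 counts in a library.

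**Figure D4:**
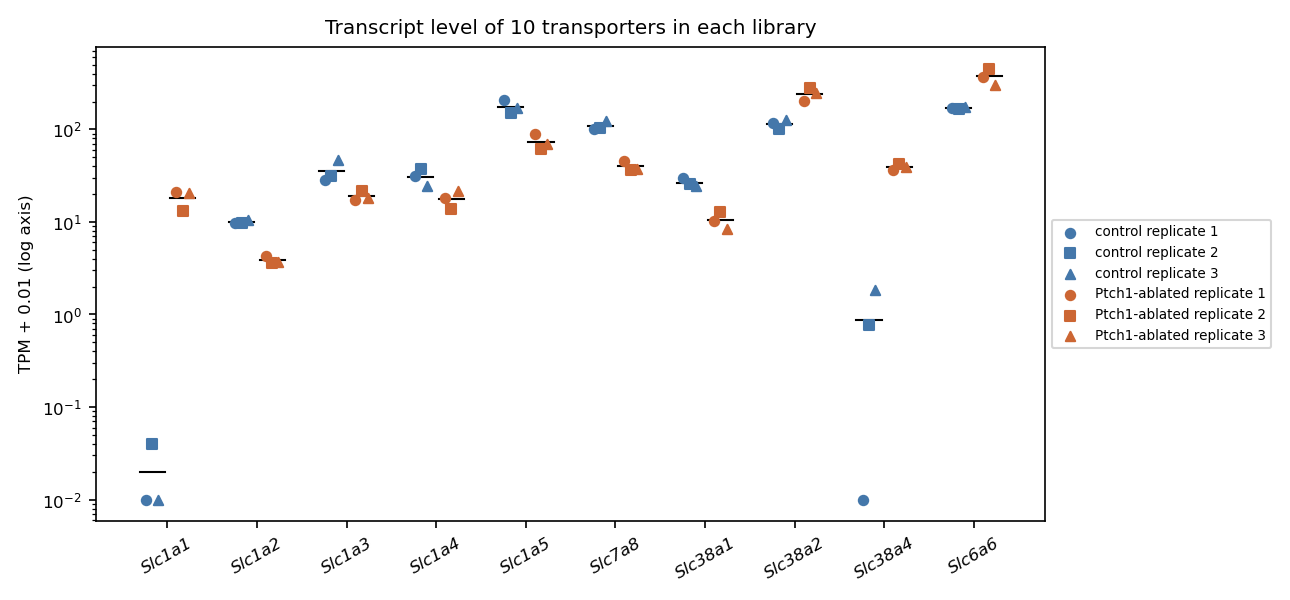
TPM + 0.01 on a log axis in each library for Slc1a1 and the 9 carriers past the adjusted p, with controls in blue, Ptch1-ablated in orange, a marker shape per replicate and a black line at the group mean. In each of the 10 genes the 3 libraries of one group lie wholly above or below those of the other, and the 3 controls of Slc38a4 are spread from 0 to 1.81 TPM. The genes were chosen from their values in these same libraries, so the separation adds no support.

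The osmolyte carrier Slc6a6 rose from an already high level. Slc6a6 encodes TauT, which accumulates taurine. It had 11123, 9618 and 11590 counts in controls and 22323, 26068 and 20375 in ablated libraries, and the controls were close together while the ablated libraries were all higher. The level rose from 507.5 ± 2.30 to 959 ± 144 CPM (log2 fold change 0.92 ± 0.13, edgeR adjusted p = 0.000727), past the adjusted p in all 17 other settings. The rise was under 2-fold in this fit and above it with library totals only (1.09), limma on either TPM scale (1.12) and without ablated replicate 3 (log2 fold change 1.01). Of the other Slc6 carriers, Slc6a9, the glycine carrier GlyT1, had 847, 655 and 266 counts against 876, 870 and 719 (log2 fold change 0.28 ± 0.37, edgeR adjusted p = 0.746, and -0.09 without control replicate 3). Ccdc24, on the opposite strand, shares 27.8% of the exon bases of Slc6a9, and its part in these counts was not tested. The broad amino acid carrier Slc6a14 had 53, 3 and 18 counts against 26, 208 and 0, so that ablated replicate 2 set its log2 fold change of 1.55 ± 1.5 (edgeR adjusted p = 0.636), which was -1.02 without that library. Slc6a4, the serotonin carrier, did not enter the edgeR fit, and with a filter of 10 counts in 3 libraries its log2 fold change was 3.15 ± 1.57 (edgeR adjusted p = 0.291).

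In the remaining families no carrier passed the adjusted p in edgeR. The cationic branch of Slc7 summed to 36.7 ± 6.08 TPM in controls and 34.0 ± 8.96 TPM in ablated libraries. Its most abundant member, Slc7a4, had 606, 397 and 712 counts in controls and 582, 74 and 634 in ablated libraries, with ablated replicate 2 alone far below the rest (log2 fold change -0.58 ± 0.55, edgeR adjusted p = 0.629). P2rx6, on the opposite strand, shares 13.3% of the exon bases of Slc7a4, and its part was not tested. Slc36a4, of the proton-coupled family, had 700, 1375 and 2085 counts against 1989, 1942 and 1778 (log2 fold change 0.29 ± 0.30, edgeR adjusted p = 0.668), a difference that rested on control replicate 1 and was -0.04 without it. Slc38a10, the most abundant carrier of the controls, had 8434, 9070 and 11237 counts against 9733, 7387 and 8729 (log2 fold change -0.33 ± 0.15, edgeR adjusted p = 0.233). Slc43a3, a carrier of nucleobases rather than amino acids, had 115, 163 and 244 counts in controls and 496, 329 and 442 in ablated libraries. These groups did not overlap, and its log2 fold change of 1.11 ± 0.36 missed the threshold (edgeR adjusted p = 0.0828) but passed it in DESeq2 (adjusted p = 0.0372), in edgeR with library totals only (0.0364) and in limma on either TPM scale (0.0265 and 0.0323). Slc7a6os had a log2 fold change of 0.46 ± 0.33 (edgeR adjusted p = 0.494).

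The other genes that handle amino acids were read from 9 lists, in which 11 of 127 genes tested passed the adjusted p (8.66%, against 8.48% of all genes), 3 higher and 8 lower. Their median log2 fold change was -0.02. The 11 include Grik4, which entered the fit through its ablated libraries alone, and without it 10 of 126 passed (7.94%), 2 higher and 8 lower. In glutamate and glutamine metabolism, 1 of 13 rose and 1 fell. Glul, which encodes glutamine synthetase, had 7409, 7487 and 7377 counts in controls and 4147, 3729 and 3574 in ablated libraries, and fell from 352 ± 37.0 to 160 ± 16.5 CPM with no overlap (log2 fold change -1.14 ± 0.14, edgeR adjusted p = 0.000273). Gpt2, the mitochondrial alanine aminotransferase, rose from 34.5 ± 13.9 to 78.5 ± 2.36 CPM (log2 fold change 1.19 ± 0.26, edgeR adjusted p = 0.0123) and missed the threshold without control replicate 2 (0.0649) or ablated replicate 3 (0.0555). In serine, glycine and cysteine synthesis, 1 of 9 rose and 1 fell. Psat1, which makes the serine precursor phosphoserine, fell from 440 ± 48.7 to 154 ± 17.5 CPM (log2 fold change -1.51 ± 0.15, edgeR adjusted p = 3.62e-05), whereas Phgdh, the step before it, was at 132 ± 9.16 and 118 ± 11.2 CPM (edgeR adjusted p = 0.633). Cdo1, which oxidizes cysteine on the path to taurine, rose from 13.2 ± 2.07 to 40.0 ± 3.15 CPM (log2 fold change 1.60 ± 0.24, edgeR adjusted p = 0.00107). In proline and arginine metabolism 1 of 12 changed, Ass1, the argininosuccinate synthetase, which fell from 1090 ± 42.0 to 742 ± 22.2 CPM (log2 fold change -0.56 ± 0.11, edgeR adjusted p = 0.00609).

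Of the ATF4 list, 3 of 13 fell and 0 rose in edgeR with TMM scaling, against 3.80% lower and 4.68% higher over all genes tested. Trib3, an ATF4 target that dampens the response, fell from 380 ± 32.2 to 133 ± 22.7 CPM (log2 fold change -1.52 ± 0.16, edgeR adjusted p = 5.88e-05). Nupr1, a stress-induced chromatin protein, fell from 812 ± 139 to 300.5 ± 32.3 CPM (log2 fold change -1.43 ± 0.15, edgeR adjusted p = 7.58e-05), and the secreted factor Fgf21 from 17.4 ± 5.69 to 3.31 ± 1.91 CPM (log2 fold change -2.39 ± 0.52, edgeR adjusted p = 0.0129, and 0.0585 without control replicate 2). Atf4 itself was at a mean of 268 and 284 CPM (edgeR adjusted p = 0.81), and Asns, the asparagine synthetase that ATF4 controls, at 39.8 ± 3.74 and 49.8 ± 10.4 CPM (edgeR adjusted p = 0.441). The list's median log2 fold change was 0.13, opposite in sign to the 3 that fell. DESeq2 and edgeR with library totals only each put 6 of the list past the threshold, and limma 8 (log2(TPM + 1)) or 7 (log2(TPM + 0.1)). Besides the 3, the genes past it in any setting were Atf3, Ddit3, Ddit4, Vldlr and Ppp1r15a, all higher in the ablated libraries. Of 19 cytosolic tRNA synthetases Sars fell (118 ± 16.6 to 71.9 ± 11.4 CPM, log2 fold change -0.72 ± 0.18, edgeR adjusted p = 0.0288), under 2-fold in every setting and short of the adjusted p in 9 of 17 others, among them those without control replicate 1 (0.0989), control replicate 2 (0.0789), ablated replicate 1 (0.0832) or ablated replicate 2 (0.108).

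No gene passed the edgeR adjusted p among 25 of amino acid sensing upstream of mTORC1 (3 at an unadjusted p under 0.05, 0 by DESeq2 and 1 by limma on either TPM scale), 11 of branched-chain amino acid breakdown (2, 0 and 0) or 13 carriers outside the member families (1, 0 and 0). Of 13 glutamate receptors tested, 1 fell. Gria1, an AMPA receptor subunit, had 1690, 2035 and 2575 counts in controls and 568, 495 and 525 in ablated libraries, and fell from 99.0 ± 18.9 to 22.1 ± 1.81 CPM (log2 fold change -2.16 ± 0.20, edgeR adjusted p = 3.07e-05). Grik4, a kainate receptor subunit, had 0 counts in each control and 47, 56 and 124 in the ablated libraries, at least 22.0-fold higher against 3 counts per library. It passed the low-count filter only through the group in which it was high, and a mean count of at least 50 left it out, so no test is given.

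**Figure D5:**
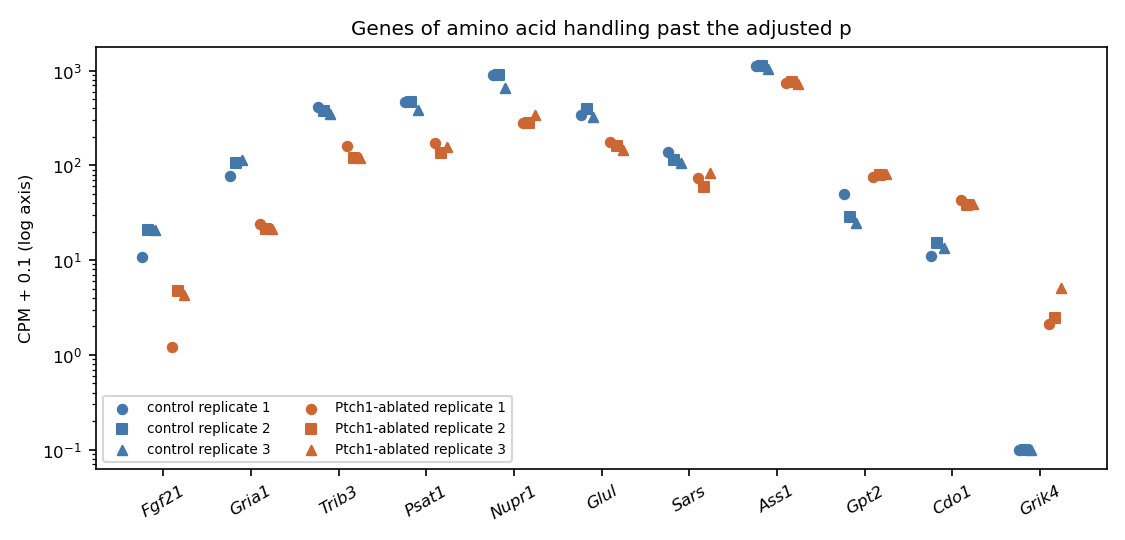
CPM + 0.1 on a log axis in each library for the 11 genes of the 9 amino acid lists past the adjusted p, ordered by log2 fold change, with controls in blue and Ptch1-ablated in orange. The libraries of the 2 groups do not overlap in any of the 11 genes, 8 of which are lower and 3 higher in the ablated libraries. These genes were chosen from their values in the same libraries, so the separation adds no support. Of all genes tested, 27.4% also had groups that did not overlap in CPM. The 3 higher include Grik4, which entered the fit through its ablated libraries alone and is given as a description with no test.

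Markers of other cell types that could express these carriers were counted beside them. Over all genes tested, 4.68% were higher and 3.80% lower at the adjusted p. Of 5 vascular endothelial markers 3 were higher in the ablated libraries (Pecam1, Cdh5 and Vwf), with sums from 645 to 823 CPM in controls and from 874 to 921 CPM in ablated libraries. Tek was higher but missed the threshold (log2 fold change 1.17 ± 0.34, edgeR adjusted p = 0.053). Kdr, the most abundant of the 5, went the other way (553 ± 87.2 to 420 ± 15.7 CPM, log2 fold change -0.40 ± 0.14, edgeR adjusted p = 0.112). Of 5 mural cell markers 2 were higher (Rgs5 and Acta2), with sums from 921 to 1121 and from 1389 to 1461 CPM. The paper uses Acta2 as a fibroblast marker. Pdgfrb, the most abundant of the 5, was at 686 ± 101 and 738 ± 45.1 CPM (log2 fold change 0.11 ± 0.13, edgeR adjusted p = 0.735). Of 6 corneal epithelial markers tested 3 were lower and 1 higher, with sums from 39.6 to 68.6 and from 2.29 to 9.41 CPM. The 1 higher was Krt12, which defines that epithelium, with 0 counts in each control and 21, 49 and 52 in the ablated libraries. It entered the fit through its ablated libraries alone, so its rise is given as a description. In edgeR 0 of the markers tested for leukocytes (900 to 981 and 776 to 1021 CPM), neurons (2.2 to 3.15 and 3.26 to 7.73 CPM), corneal endothelium (646 to 779 and 436 to 754 CPM), melanocytes (18.1 to 23.0 and 13.1 to 18.9 CPM) or photoreceptors and Mueller glia (0.999 to 2.01 and 1.81 to 2.09 CPM) passed the adjusted p, with 1 at an unadjusted p under 0.05, in the corneal endothelium, where DESeq2 and limma each put 1 past the threshold. That marker was Slc4a11, which went from 4.81 ± 4.13 to 20.9 ± 5.78 CPM (log2 fold change 2.12 ± 0.61, edgeR adjusted p = 0.0541). It passed the threshold in 9 of 17 other settings. Most of the corneal endothelial sum came from Col8a2, which went the other way (698 ± 69.1 to 536 ± 163 CPM, edgeR adjusted p = 0.286). The part of any of these cell types in the transporter differences was not tested.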

How the data were processed

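Keratocytes were sorted by FACS and RNA was extracted with Trizol. Per the labels, an Illumina TruSeq kit was used for the libraries, whereas the study's methods describe Ribo-Zero depletion and BGISEQ-500 sequencing. The submitters' processing notes name mm9, Bowtie2 2.2.5 and RSEM 1.2.12, and the strand setting is not given in the sources used here. The deposited values were RSEM expected counts per gene (18.6% not whole, since reads matching several genes are split), with TPM scaled by the authors for length and library, and FPKM deposited by the authors, used for one alternative of the summed levels. The authors' averages were not used.

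Groups and replicate numbers came from the sample titles. The study's methods call the 3 replicates biological, without naming animals, so p-values measure the spread between these samples. Replicate libraries differed by more than sampling noise (chi-square per degree of freedom of at least 33.8). Same-numbered libraries did not deviate together, so no pairing was used. Expected counts were rounded, 13888 of 17606 genes passed filterByExpr, and the quasi-likelihood test of edgeR was run between groups (edgeR 4.0.16, R 4.3.3, TMM, two-sided, Benjamini-Hochberg over all genes tested). Called genes had an adjusted p not above 0.05 and a change of at least 2-fold, the thresholds of the study's methods. For its keratocyte gene list the study's results section instead names a p, not an adjusted p, below 0.05. The SE of a log2 fold change was derived from the test, as its size divided by the square root of the quasi-likelihood F. CPM is per 1000000 counts of the TMM-scaled total. A count of 0 allows up to 3 counts, or 0.121 to 0.148 CPM of the unscaled totals, counting error only. Levels between genes were compared in TPM. The edgeR script was tested on simulated data.

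Members, roles and lists were chosen with earlier results of these data known. The result of 1 marker list is not reported here. Named were Slc1a1, members past the adjusted p, the most abundant member of each role, and list genes past the adjusted p. Slc7a5, Slc7a11, Slc6a4, Slc3a1, Slc1a6, Slc1a7, Slc38a5, Phgdh, Atf4, Asns and the genes of the closing observations were named after their values were seen. So were Atf3, Ddit3, Vldlr, Ppp1r15a, Tek, Kdr, Slc4a11, Col8a2, Lum, Dcn and Pdgfrb. Promoters came from a RefSeq table (GRCm38.p6) by symbol. Shared exons were read from a GRCm38 annotation, and no coordinates were converted. Alternatives were DESeq2 1.42.0, limma 3.58.1 on log2(TPM + 1) and log2(TPM + 0.1), RLE and upper quartile scaling, other filters and thresholds, a replicate block and leaving out each library. Library totals alone, and leaving out control replicate 1 with ablated replicate 2, were chosen after seeing the data.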

Additional observations from a re-analysis of the deposited data

How the results depend on the processing

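Of the 35 carriers other than Slc1a1, between 6 and 9 were called (7 as reported) and between 8 and 10 passed the adjusted p (9 as reported) over all settings, 6 to 8 and 8 to 9 when 1 library was left out. The genes past the adjusted p in the 9 amino acid lists, 11 as reported, numbered 18 with DESeq2, 17 with library totals only, 22 with limma on log2(TPM + 1) and 19 with limma on log2(TPM + 0.1), and 9 to 12 with 1 library left out. Over all genes, 1178 passed the adjusted p, against 1813 with DESeq2 and 778 without control replicate 2. Library totals only moved the median log2 fold change of all genes to 0.17, and the TPM scales to 0.19 (TPM + 1) and 0.22 (TPM + 0.1), so rises of that size are not changes relative to the other genes. The carriers called went from 1 higher and 6 lower to 4 and 4 in each of these 3 settings. Carriers present in controls numbered 36 at a mean TPM of at least 0.5 and 27 at a mean of at least 2.

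The sign turned in at least 1 setting for 15 of the 35 carriers, none of them past the adjusted p in any setting. Among the most abundant of each role, 4 did so. Slc3a2 was at 0.14 with library totals only, 0.17 with limma on either TPM scale and 0.061 without control replicate 3 (-0.10 to 0.061 with 1 library left out). Slc6a9 was at -0.091 without control replicate 3 (-0.091 to 0.58), and Slc36a4 at -0.04 without control replicate 1 (-0.04 to 0.61) and -0.066 without control replicate 1 and ablated replicate 2. Slc6a14 was at -0.65 with the replicate block and -1.02 without ablated replicate 2 (-1.02 to 2.78).

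The replicate numbers did not pair the samples, with correlations of deviations of -0.046, -0.049 and 0.039 for numbers 1 to 3. With the replicate number as a block, 941 genes passed the adjusted p, 8 of the 35 carriers passed it (without Slc1a4) and 6 were called. An alignment of protein sequences was not run. A carrier could change without passing, the more so with few counts: the SE was 1.5 for Slc6a14 and 0.13 for Slc6a6. In the simulated data, 17 of 50 genes changed 2-fold and 70 of 100 changed 4-fold passed the adjusted p.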

Other observations

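Some carriers of the nervous system were counted in a single library. Slc6a2, the noradrenaline carrier, had 88 counts in ablated replicate 2 and 0 in the other 5 libraries. Slc6a3, the dopamine carrier, had 44 in control replicate 3 and 0 in the others, and Slc1a7, a glutamate carrier known from the retina, had 48 in ablated replicate 3 and 2 in the others together. With at least 20 counts in 1 library and at most 3 in each other one, these were 3 of 52 members (5.77%), against 1.42% of the genes in the table (250 genes). The neuron markers summed to at most 7.73 CPM in any library, and the photoreceptor and Mueller glia markers to at most 2.09 CPM.

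Among genes that missed the threshold, the metabotropic glutamate receptor Grm8 had 88, 128 and 133 counts in controls and 21, 1 and 28 in ablated libraries (log2 fold change -2.99 ± 0.96, edgeR adjusted p = 0.0842). Gria4, another AMPA receptor subunit, had 21, 15 and 0 counts against 74, 115 and 155 (log2 fold change 3.02 ± 1.12, edgeR adjusted p = 0.14), the opposite direction to Gria1. Ddit4, an mTORC1 inhibitor of the ATF4 list, had 202, 179 and 213 counts against 426, 420 and 480 with no overlap (log2 fold change 0.98 ± 0.28, edgeR adjusted p = 0.0549).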
